A study of Saccharomyces cerevisiae with 4 samples.

Results

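The genes described here are enzymes of amino acid synthesis outside arginine in the budding yeast Saccharomyces cerevisiae. Not every such enzyme is included. GCN4, the gene for the transcription factor that activates many of them, is described with them. The set was given by systematic name and holds 48 of the 7132 features in the counts table: 7 histidine genes, 11 genes for leucine, isoleucine and valine, 7 lysine genes, 12 genes for the aromatic amino acids, 7 genes for asparagine, homoserine and threonine, 3 serine genes, and GCN4. It was chosen by pathway and not by a threshold, but with earlier results of these counts known, so its counts of differing genes are a description of these libraries and not independent evidence. All 48 genes passed the filter on low counts, and the smallest count of any member in any library was 234 reads.

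The RNA came from mature spores of a diploid strain in the SK1 background, in which the CUP1 promoter drives IME1, the master inducer of meiosis, so that copper starts sporulation. A cassette with mCherry, a red fluorescent protein, and hph, for hygromycin resistance, sits at the MATa allele, so that spores carrying it turn red. The GPD1 promoter drives mCherry in the spore itself, and a TEF promoter drives hph. Spores were collected after 7 days at 30 °C and sorted by color in 2 separate sporulation runs, which gave 4 libraries: red spores (a spores, titled RFP positive) of replicates 2 and 1, and non-red spores (α spores, titled RFP negative) of replicates 2 and 1. All 4 libraries therefore share the same parent strain, the same copper induction and, within a replicate number, the same run. The deposited strain descriptions do not follow the color: they read MATa for 1 of the 4 samples, a non-red one (replicate 1), and MATalpha for the remaining 3, whereas the paper takes red spores as a. The color in the sample titles was used here. The hph reads followed the color, with 67902 and 71566 reads in red spores of replicates 2 and 1, against 972 and 4348 in non-red spores. Totals ran from 25493760 to 45697828 reads per library, and of the 10 late and middle sporulation genes checked none was at 0 in every library. SPS100, a spore wall gene, had between 2151 and 3238 normalized CPM (reads of a gene scaled to an equal, TMM-adjusted library total) in each.

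In growing yeast these pathways are switched on together when an amino acid runs short, a response called general amino acid control. Uncharged tRNA activates the kinase Gcn2, general translation slows, and translation of the GCN4 mRNA, held back by short upstream reading frames, is released. Gcn4 then binds sites with the core TGACTC in front of its target genes. The branched-chain genes have a further activator, Leu3, which responds to the pathway intermediate isopropylmalate. In this study the sporulation medium held added histidine, leucine and tryptophan according to the methods. The genotype of the strain at HIS3, LEU2, TRP1 and LYS2, often used as marker genes, is not given in the sources used here.

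The largest difference within the set lay between the 2 sporulation runs and not between the mating types. Reads on the 48 genes made up 1.80% of all reads in a spores and 1.85% in α spores of replicate 2, against 6.35% in a spores and 7.10% in α spores of replicate 1. The 95% Wilson intervals on these shares were 1.795% to 1.805% and 1.849% to 1.860% in replicate 2, and 6.347% to 6.363% and 7.093% to 7.108% in replicate 1, which cover counting error only. Within a run the mating types were thus close to each other, while the runs did not overlap. Most of these reads fell on the leucine, isoleucine and valine genes, which alone took 1.01% and 1.06% of reads in replicate 2 and 3.59% and 3.95% in replicate 1 (a spores before α spores in each run). Because the RNA was measured in bulk, fewer spores of a kind and less RNA per spore cannot be told apart.

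**Figure D1:**
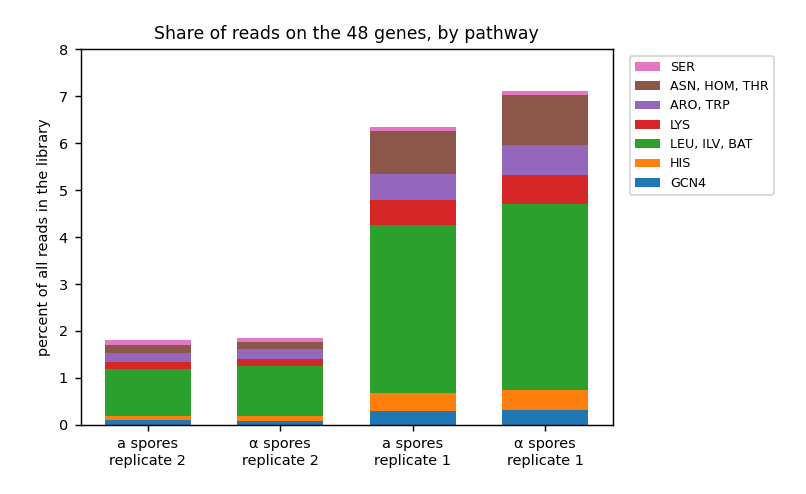
Percent of all reads in each library that fell on the 48 genes, stacked by pathway, with replicate 2 on the left and replicate 1 on the right. The bars reach 1.8% and 1.85% in replicate 2 and 6.35% and 7.1% in replicate 1, and the leucine, isoleucine and valine genes make up the largest block in each.

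Counts were compared in a single edgeR model with mating type and replicate number as terms, fitted to all 6140 genes that passed the filter. In the quasi-likelihood test of replicate 2 against replicate 1, 38 of the 48 genes were lower in replicate 2 at a false discovery rate (FDR) under 0.05, none was higher and 10 did not pass. Across all genes tested, 9.87% were lower and 8.96% were higher by the same rule, 18.8% in all, and nothing is read from the share among the members beyond these counts. The likelihood ratio test of edgeR gave 38 lower and 1 higher (13.9% of all genes lower, 26.1% in either direction), and DESeq2 gave 42 lower and 1 higher (22.6% and 44.1%). In a fit without α replicate 1, which like every fit with a library left out also had to drop the mating-type term, 33 of the 38 calls were kept and 623 genes were called in all, against 1156 with all libraries and both terms. Dropping that term alone, with all libraries, gave 38 members and 1266 genes. The median log2 fold change of the members was -1.63, against -0.02 for all genes. Of the 48, 14 were more than 4-fold lower, as were 6.63% of all genes. Within a spores alone the median log2 ratio was -1.64, and within α spores alone it was -1.68. For 43 members both replicate 2 libraries lay below both replicate 1 libraries, which was so for 31.1% of all genes. Each run is a single event, so these p-values compare these 2 runs and say nothing of other runs. Of the general markers checked beside the members, the 10 genes of vegetative growth and budding summed to 1588 CPM in a spores and 1440 in α spores of replicate 2, against 3719 and 4869 in replicate 1. In that list 2 of 10 genes were lower in replicate 2, FKS1 and CIS3, both cell wall genes, and none was at 0 in every library. FKS1 had 266 and 241 CPM in replicate 2 against 1118 and 1645 in replicate 1, and CIS3 had 517 and 594 against 1852 and 2403. The difference in the sums lay mainly in FKS1 and CIS3. The other 8 did not pass, and their log2 fold changes went both ways, from -3.57 for CLN1 to 0.61 for EGT2. The 10 sporulation genes summed to 2995 and 3471 CPM in replicate 2 and 2454 and 2568 CPM in replicate 1, and none passed the test. Most of each sum was SPS100, with 2768 and 3238 CPM in replicate 2 and 2151 and 2297 in replicate 1. The log2 fold changes of the 10 went both ways, from -1.33 to 3.29. The part of either list in the difference between runs was not tested.

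**Figure D2:**
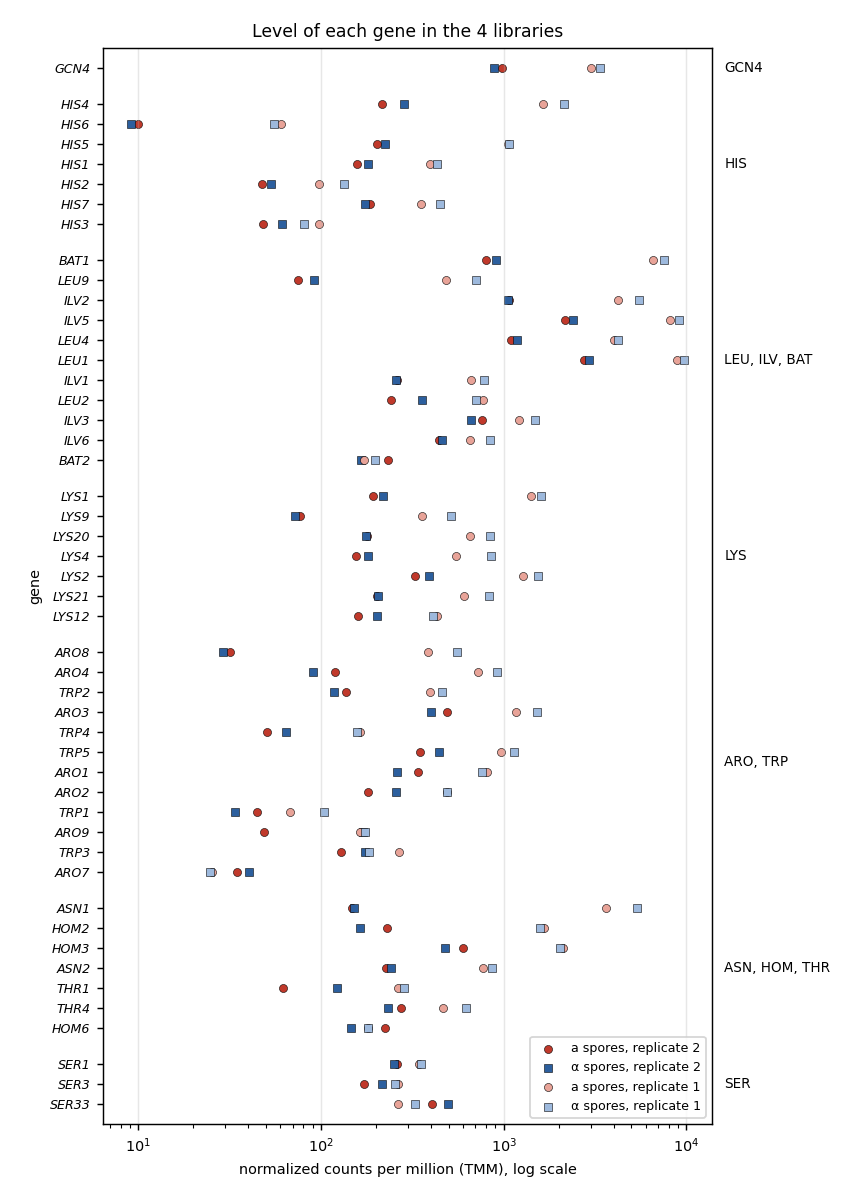
Normalized CPM (log scale) of each of the 48 genes in each library, grouped by pathway, with circles for a spores, squares for α spores, dark symbols for replicate 2 and pale symbols for replicate 1. For 43 genes the dark symbols both lie left of the pale ones.

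GCN4 itself (YEL009C, chromosome V, 138918 to 139763 in R64) was among the most abundant members. It had 979 CPM in a spores and 891 in α spores of replicate 2, against 2992 and 3375 in replicate 1. The runs did not overlap, and the log2 fold change was -1.77 (SE 0.19, FDR = 0.000508, edgeR's quasi-likelihood test with Benjamini-Hochberg adjustment). Per kb of coding length, the scale on which genes can be set beside each other, its mean level was higher than that of 99.5% of the 5786 genes with a coding length. These counts measure the mRNA, and the translation of GCN4, at which much of its control acts, was not measured.

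The bases before the start codons of the members were read from the R64 reference, because Gcn4 binds there in growing cells. In the 500 bases upstream of the start codon, 30 of the 48 members (62.5%) held TGACTC on either strand, against 12.9% of 5778 genes. The longer form TGACTCA, which contains the core, was found for 22 members (45.8%), against 4.10% of all genes. The median log2 fold change between runs was -1.73 for the 30 members with the core and -1.37 for the 18 without it, and 26 and 12 of them were lower in replicate 2. Of all 745 genes with the core, 112 (15%) were lower, and 26 of these 112 were members. Among all 6140 genes tested 9.87% were lower. The members themselves raise the share of 15%, so nothing is read from it. A match is a description of these letters only. The sites below come from members with large and small differences between runs, from a pair of isozymes and from a possible marker gene, with the core in capitals and 10 bases on each side, read on the strand of the gene from the S288C reference and not from the SK1 strain.
ASN1: atgtaacattTGACTCattctgtaaa
ASN2: ttcttagcatTGACTCatggcaagat
HOM2: aagcattgatTGACTCattttcctct
ARO4: tactgcgaaaTGACTCaacgatgaaa
HIS4: ccatgcacagTGACTCacgttttttt
HIS3: acctagcggaTGACTCtttttttttc
SER33: cgctggaaacGAGTCAccgttatgaa
They lie at chrXVI:822383-822408 for ASN1, chrVII:739737-739762 for ASN2, chrIV:770163-770188 for HOM2, chrII:718291-718316 (minus strand) for ARO4, chrIII:68517-68542 (minus strand) for HIS4, chrXV:721814-721839 for HIS3 and chrIX:222629-222654 (minus strand) for SER33. ASN1 and ASN2 both carried the 7-base form, 221 and 191 bases before their start codons, while SER33 carried the core in the reverse orientation. The HIS3 site shown lacks the final A of the 7-base form, and for HIS3 and HIS4, which hold several cores, the one nearest to the start codon is printed. ARO8, the member with the second-largest decrease, and GCN4 itself held no TGACTC in this window.

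A separate search was made for the Leu3 form, CCGG, any 2 bases and CCGG again, which is matched on both strands at once. It was found upstream of 5 members, LEU1, LEU2, ILV2, ILV5 and BAT1, and of 0.277% of all genes, or 16 of 5778. All 5 members were lower in replicate 2, with a median log2 fold change of -1.92. Of the 43 members without the motif, 33 were lower, with a median of -1.49. Of the 16 genes with the motif, these 5 members included, 9 (56.2%) were lower, beside 9.87% of all genes tested. The part of the motif in the difference between runs was not tested. The sites are shown because the genes include LEU1, ILV5 and BAT1, the members with the highest mean levels per kb, with the 10 bases of the motif in capitals.
LEU1: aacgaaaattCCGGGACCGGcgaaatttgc
LEU2: ggtgagagcgCCGGAACCGGcttttcatat
ILV2: ccggagcctgCCGGTACCGGcttggcttca
ILV5: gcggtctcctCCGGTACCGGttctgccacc
BAT1: attgtgtttgCCGGTACCGGcctttaagct
They lie at chrVII:478850-478879 (minus strand) for LEU1, chrIII:91116-91145 for LEU2, chrXIII:483606-483635 for ILV2, chrXII:839611-839640 (minus strand) for ILV5 and chrVIII:517375-517404 for BAT1.

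The leucine, isoleucine and valine genes were the most abundant block, and 10 of the 11 were lower in replicate 2. Beside this count and those of the pathways below stands the share of all genes tested that were lower, 9.87%. ILV5 (YLR355C, chromosome XII, 838066 to 839253), an acetohydroxyacid reductoisomerase of the mitochondrion, had the highest mean level of all members per kb. It reached 2158 CPM in a spores and 2395 in α spores of replicate 2, against 8131 and 9158 in replicate 1, a log2 fold change of -1.92. LEU1, the isopropylmalate isomerase, had 2745 and 2920 CPM in a and α spores of replicate 2 and 8927 and 9764 in those of replicate 1. Its log2 fold change was -1.72. ILV2, the catalytic subunit of acetolactate synthase, had 1073 and 1056 CPM in replicate 2 against 4228 and 5497 in replicate 1, a log2 fold change of -2.18. Its regulatory subunit gene ILV6 had a smaller fold change, with 442 and 461 CPM in replicate 2 against 657 and 839 in replicate 1 (log2 fold change -0.72, FDR = 0.0360), and did not pass without a replicate 2, without α replicate 1 or without α replicate 2. Threonine deaminase (ILV1) and dihydroxyacid dehydratase (ILV3) had log2 fold changes of -1.47 and -0.92, the second of which did not pass without α replicate 2.

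All 7 lysine genes were lower in replicate 2, with log2 fold changes between -2.88 and -1.23. LYS1 (YIR034C, chromosome IX, 419615 to 420736), which forms lysine from saccharopine, was the most abundant of them per kb. It had 193 CPM in a spores and 218 in α spores of replicate 2, against 1412 and 1608 in replicate 1, so that the runs differed by 7.34-fold. LYS9, which makes saccharopine, was the lowest of the 7 per kb, with 76.8 and 71.8 CPM in replicate 2 against 359 and 514 in replicate 1. LYS12, the homoisocitrate dehydrogenase, had the smallest difference of the pathway, at -1.23 (FDR = 0.00692). LYS4, the homoaconitase, had 156 and 180 CPM in replicate 2 against 546 and 850 in replicate 1 (log2 fold change -2.02).

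Among the histidine genes 6 of 7 were lower in replicate 2. HIS4 (YCL030C, chromosome III, 65934 to 68333), a multifunctional enzyme of the pathway, had 215 and 286 CPM in a and α spores of replicate 2 against 1639 and 2138 in replicate 1. Its log2 fold change was -2.92 (SE 0.20, FDR = 0.000128). HIS5, the histidinol-phosphate aminotransferase, was the most abundant per kb, with 202 and 224 CPM in replicate 2 against 1062 and 1069 in replicate 1. HIS6, an isomerase, was the lowest of the pathway and of all members in replicate 2, at 9.96 and 9.09 CPM, against 60.8 and 55.7 in replicate 1. The other called genes of the pathway, HIS1, HIS2 and HIS7, had log2 fold changes between -1.29 and -1.15. Without a replicate 1 and without α replicate 1 HIS2 and HIS6 did not pass, HIS2 also not without a replicate 2, and HIS7 not without α replicate 1.

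Of the 12 genes of the aromatic branch, 8 were lower in replicate 2 and 4 did not pass. ARO8 (YGL202W, chromosome VII, 116059 to 117561), an aromatic aminotransferase, had 31.9 CPM in a spores and 29.0 in α spores of replicate 2, against 387 and 554 in replicate 1. Its log2 fold change of -3.93 (SE 0.28, FDR = 0.000131) was the second-largest decrease among the members, and per kb it stood above 11.7% of genes in a spores of replicate 2, against 89% in a spores of replicate 1. ARO1, the multifunctional arom protein, ARO2, chorismate synthase, and the tryptophan genes TRP2, TRP4 and TRP5 had log2 fold changes between -1.74 and -1.18. ARO7, the chorismate mutase that leads to tyrosine and phenylalanine, had the lowest mean level of the branch per kb. It did not pass the test, with 34.8 and 40.4 CPM in replicate 2 against 25.2 and 24.7 in replicate 1. TRP3, whose product works with anthranilate synthase, did not pass either, with 129 and 174 CPM in replicate 2 against 266 and 184 in replicate 1 (log2 fold change -0.56, FDR = 0.244).

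The aspartate family held the largest difference of the set. ASN1 (YPR145W, chromosome XVI, 822620 to 824338), an asparagine synthetase, had 148 CPM in a spores and 151 in α spores of replicate 2, against 3641 and 5374 in replicate 1. This is a 29.5-fold lower level in replicate 2 (log2 fold change -4.88, SE 0.23, FDR = 3.25e-05), at rank 99 of the 6140 genes ordered from the lowest fold change. HOM2, the aspartate semialdehyde dehydrogenase, had 229 and 163 CPM in replicate 2 against 1668 and 1583 in replicate 1, a log2 fold change of -3.07. HOM3, the aspartate kinase that opens the branch to threonine, had 596 and 478 CPM in replicate 2 against 2119 and 2037 in replicate 1 (log2 fold change -1.96). The kinase and synthase that finish threonine, THR1 and THR4, had log2 fold changes of -1.66 and -1.09, and THR4 did not pass without α replicate 1. HOM6, the homoserine dehydrogenase of the same branch, did not pass the test and stood at 225 and 146 CPM in replicate 2 against 182 and 180 in replicate 1. Of the 3 serine genes none passed. SER1, the phosphoserine aminotransferase, had 262 and 251 CPM in replicate 2 against 343 and 355 in replicate 1, and the genes of its partner enzyme are described with the isozymes.

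**Figure D3:**
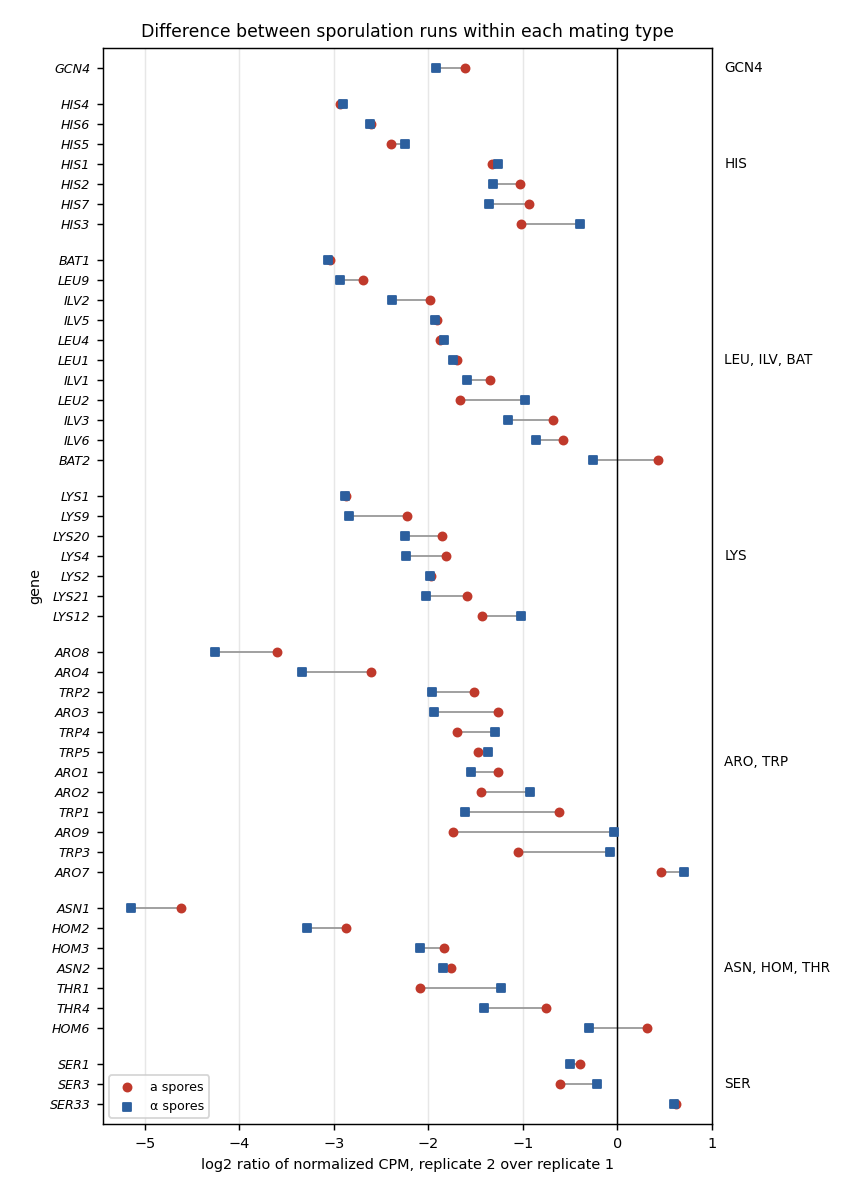
Log2 ratio of normalized CPM in replicate 2 over replicate 1 for each gene, with circles for a spores and squares for α spores, grouped by pathway and ordered by the fitted difference. ASN1 lies furthest left, at -4.62 in a spores and -5.15 in α spores, and only ARO7 and SER33 lie right of 0 in both.

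The 4 possible marker genes all had reads in every library. LEU2, the isopropylmalate dehydrogenase, had 242 and 356 CPM in a and α spores of replicate 2 and 772 and 703 in those of replicate 1, and was lower in replicate 2 (log2 fold change -1.33). LYS2, the aminoadipate reductase, had 327 and 390 CPM in replicate 2 against 1278 and 1539 in replicate 1, at -1.97. HIS3, the imidazoleglycerol-phosphate dehydratase, had 48.3 and 60.9 CPM in replicate 2 against 98.2 and 80.4 in replicate 1, and did not pass the test (log2 fold change -0.71, FDR = 0.227). TRP1, the phosphoribosylanthranilate isomerase, likewise did not pass, with 44.4 and 34.0 CPM in replicate 2 against 68.1 and 104 in replicate 1 (log2 fold change -1.11, FDR = 0.106). Over the 4 libraries HIS3 and TRP1 had a mean of 108 and 92.8 CPM per kb, LEU2 had 474 and LYS2 had 211, which placed them above 68.1%, 62.2%, 94.2% and 85.6% of genes by this mean. Totals per gene do not show which part of a gene the reads cover, so they do not tell an intact gene from an altered allele.

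Several steps are shared by isozymes, and members of a pair did not always move alike. ASN1 and ASN2 have the same activity. ASN2 had 228 and 241 CPM in a and α spores of replicate 2 against 771 and 860 in replicate 1, a log2 fold change of -1.80. Per kb, ASN1 thus stood at 0.650 and 0.629 times ASN2 in replicate 2 and at 4.72 and 6.25 times ASN2 in replicate 1. The branched-chain aminotransferases also differed from each other. BAT1 (YHR208W, chromosome VIII, 517532 to 518713), the mitochondrial enzyme, had 798 and 912 CPM in replicate 2 against 6574 and 7578 in replicate 1 (log2 fold change -3.05, SE 0.17), whereas BAT2, the cytosolic enzyme, had 233 and 165 CPM in replicate 2 against 173 and 197 in replicate 1 (log2 fold change 0.09, FDR = 0.876). The ratio of BAT1 to BAT2 per kb was 3.28 and 5.29 in replicate 2 and 36.3 and 36.8 in replicate 1.

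ARO3 and ARO4, which open the aromatic pathway, are inhibited by phenylalanine and by tyrosine. ARO3 had 491 and 399 CPM in replicate 2 against 1175 and 1525 in replicate 1, and ARO4 had 119 and 90.2 against 725 and 915. Both were lower in replicate 2, with log2 fold changes of -1.60 and -2.98, so that ARO3 exceeded ARO4 per kb by 4.14 and 4.42 times in replicate 2 and by 1.62 and 1.67 times in replicate 1. LEU4, the major isopropylmalate synthase, had 1100 and 1178 CPM in replicate 2 against 4042 and 4201 in replicate 1. Its minor partner LEU9 had 74.8 and 91.6 CPM against 481 and 705, and a log2 fold change of -2.81 against -1.86 for LEU4. ARO9, the other aromatic aminotransferase, did not pass the test, with 48.8 CPM in a spores and 169 in α spores of replicate 2 against 164 and 174 in replicate 1. Here the a library of replicate 2 stood apart from the other 3.

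The genes of 3-phosphoglycerate dehydrogenase, SER3 and SER33, differed in direction without passing the test. SER3 had 173 and 217 CPM in replicate 2 against 264 and 253 in replicate 1 (log2 fold change -0.42, FDR = 0.284), and SER33 had 406 and 498 CPM against 264 and 329 (log2 fold change 0.61, FDR = 0.0725). LYS20 and LYS21, the homocitrate synthases, had nearly equal levels, with ratios per kb between 0.881 and 1.10 over the 4 libraries. LYS20 had 179 and 176 CPM in replicate 2 against 651 and 837 in replicate 1, and LYS21 had 202 and 205 against 607 and 832. In the reference, 37.8% of the 50-base words of LYS20 and 36.7% of those of LYS21 also occur elsewhere, so reads may be divided between them and their separate values are uncertain. Their sum was 381 and 381 CPM in replicate 2 and 1258 and 1669 in replicate 1. The same share was 2.04% for ASN1 and ASN2, 0.808% for SER3 and SER33, and 0% for the other 42 members, and no member overlaps another annotated coding sequence. Ratios within a pair are given as a description and were not tested.

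**Figure D4:**
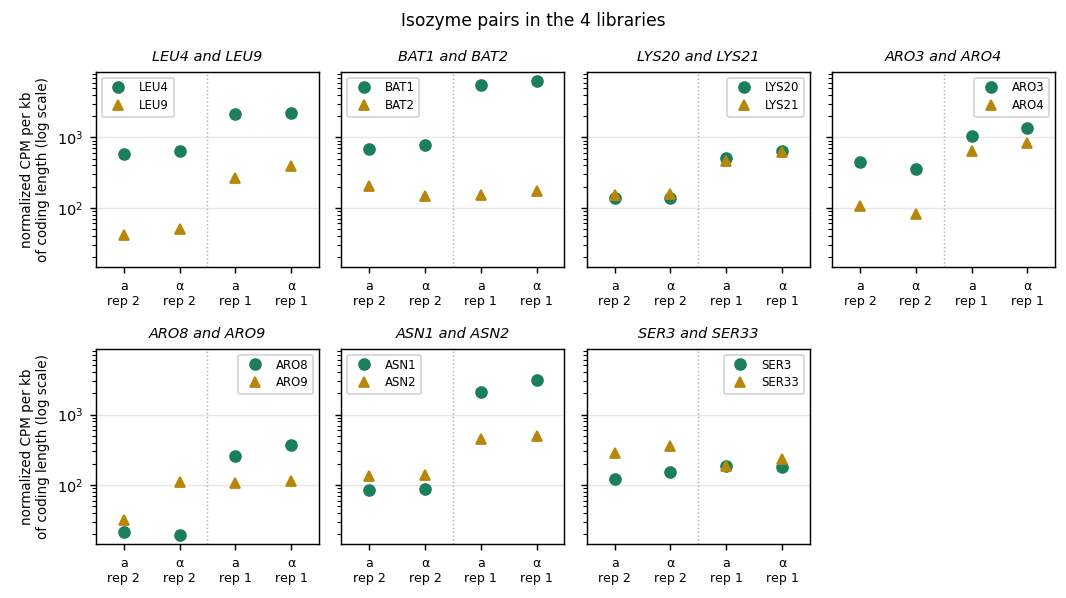
Normalized CPM per kb of coding length (log scale) of the 7 isozyme pairs, a and α spores of replicate 2 left of the dotted line and of replicate 1 right of it. ASN1 lies below ASN2 in replicate 2 and above it in replicate 1, while BAT2 stays between 146 and 206 in all libraries.

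The comparison the study was built for, a against α spores, gave no called difference among these genes in the same model. None of the 48 members passed the FDR of 0.05, and neither did any in edgeR's likelihood ratio test. Of all genes 0.0163%, or 1 gene, passed in each of these tests, and in the quasi-likelihood test it was hph. The edgeR analysis of the paper also listed mCherry, MATa1 and YAR064W as differing, and here none of these passed the quasi-likelihood test. For YAR064W the paper itself thinks that the gene does not truly differ. In replicates 2 and 1 mCherry had 514 and 217 CPM in a spores against 0 and 12.5 in α spores. MATa1 had 93.3 and 29.3 CPM against 8.46 and 0. The fit thus missed transcripts that the paper called. Among the members only ARO9 was under an unadjusted 0.05 in the quasi-likelihood test (log2 fold change of a over α -0.94, SE 0.41, FDR = 1), as were 2.96% of all genes. DESeq2, with the same terms, called 1 member, HIS4, at a log2 fold change of -0.42 beside 3.62% of all genes. HIS4 was lower in a spores within both runs, with log2 ratios of -0.41 in replicate 2 and -0.38 in replicate 1, and its fitted value in edgeR was -0.40 (SE 0.19, FDR = 1). The members lay within a narrow range, from -0.94 for ARO9 to 0.32 for HOM6, with a median of -0.13 against 0.02 for all genes. The fitted value was lower in a spores for 39 of the 48, against 48% of all genes, but in both runs for only 20. The share of all genes lower in both runs was not computed. The count of 39 was 36 under scaling to total counts only and 40 under DESeq2, and nothing is read from it. The libraries of the mating types did not overlap for 2 members, ARO9 and HOM6, against 19.1% of all genes.

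The other members with the smallest p-values also had small differences, all at an FDR of 1. LEU9 and LYS4 each had a log2 fold change of a over α of -0.42, with an SE of 0.21 for both. THR1 had -0.54 (SE 0.29), from 62.2 CPM in a spores against 122 in α spores of replicate 2 and 265 against 286 in replicate 1. On the other side HOM2 had 0.28, HOM3 0.19, ARO1 0.24 and BAT2 0.16, with SEs between 0.19 and 0.27. For GCN4 the value was -0.02 (SE 0.18). With 2 libraries a group, a difference that missed the threshold does not show that the levels were equal.

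**Figure D5:**
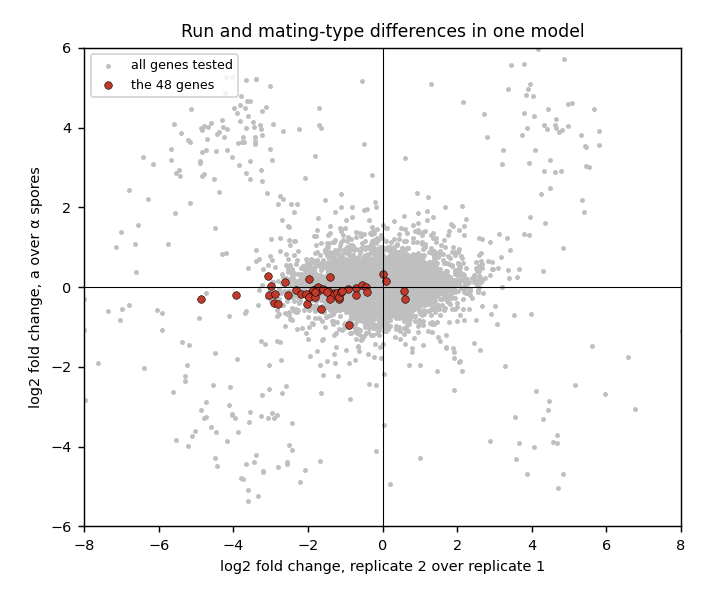
Fitted log2 fold change of replicate 2 over replicate 1 (horizontal) and of a over α spores (vertical) for all 6140 genes (grey) and the 48 genes (red), with 121 genes outside the axes. The 48 genes spread from -4.88 to 0.61 along the horizontal axis and from -0.94 to 0.32 along the vertical axis.

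A list of 22 genes outside the set, from the same pathways or their control, was read the same way. Between runs 3 were lower in replicate 2, 1 was higher and 18 did not pass, with a median log2 fold change of -0.51. These counts are beside 9.87% lower and 8.96% higher among all genes, so that nothing is read from them. The lower ones were GLY1, the threonine aldolase that makes glycine (log2 fold change -1.89), ARO10, a decarboxylase of amino acid breakdown (-1.42), and GCN1, which acts with the kinase Gcn2 (-1.40). GLY1 had 238 and 211 CPM in replicate 2 against 774 and 891 in replicate 1. PHO2, a partner of Bas1 at histidine and purine genes, was higher, with 189 and 164 CPM against 104 and 66.5 (log2 fold change 1.08). The kinase gene GCN2 (0.06) and the pathway activators LEU3 (-0.36) and LYS14 (-0.51) did not pass. None of the 22 passed between a and α spores in the quasi-likelihood test, and none was under an unadjusted 0.05.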

How the data were processed

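Paired-end RNA-seq reads of sorted spores were aligned by the authors with STAR 2.7.3a to R64 with mCherry and hph added, and counted with featureCounts. What they deposited is an estimated count for each gene and library with no normalization, and 61.7% to 69.3% of the non-zero values are not whole (tolerance 0.001). Strand and multi-mapping settings are not given in the sources used here. Counts were rounded, filtered with filterByExpr, normalized by TMM and fitted in edgeR 4.0.16 (R 4.3.3) by quasi-likelihood with mating type and replicate number as terms and a Benjamini-Hochberg FDR of 0.05. The prior count was 0.125, and the SE is the absolute log2 fold change over the square root of F. The study describes an edgeR generalized linear model that accounts for batch; the likelihood ratio form was run as an alternative. The replicate number marks a shared run of sporulation and sorting according to the paper, and libraries with the same number deviated together from their mating-type means (r = 0.542 across 6140 genes).

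Members, lists and tests were chosen with earlier results of these data known. Values in every library were given for GCN4, the possible marker genes, isozymes, the highest and lowest member of each pathway per kb, and the members with the smallest p. Alternatives were the likelihood ratio test, DESeq2 1.42.0, other normalizations and filters, no replicate block, another FDR and prior count, and leaving out each library. The 7-base and Leu3 motifs were added after seeing the data. The fit was tested on simulated data with 200 changed genes, drawn from those with a mean of at least 200 reads. Between mating types the quasi-likelihood test recovered 28% of 2-fold and 80% of 4-fold changes. Between runs it recovered 30.5% and 77.5%. Most simulated 2-fold changes were thus missed. The changed genes were not matched to the members in level, so these shares are not recovery rates for the members. Names, coordinates and upstream bases are from the R64 reference, whose locus tags match 6047 of 7132 features. A count of 3 reads corresponds to between 0.0656 and 0.118 CPM. Levels per kb use the coding length. Other steps used numpy 2.4.6, pandas 2.3.3, scipy 1.17.1 and matplotlib 3.10.9.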

Additional observations from a re-analysis of the deposited data

Results flagged for a closer look

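The difference between runs pointed in opposite directions in the mating types for 2 members. BAT2, the cytosolic branched-chain aminotransferase, had a log2 ratio of replicate 2 over replicate 1 of 0.43 in a spores and -0.26 in α spores. HOM6, the homoserine dehydrogenase, had 0.31 in a spores and -0.30 in α spores. Each ratio rests on 1 library per run, so the difference between mating types was not tested.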

How the results depend on the processing

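With the block on replicate number, 1 gene and 0 members differed between a and α spores, and with no replicate block 0 genes did. DESeq2 called 222 genes and 1 member (HIS4), and scaling to total counts only called 4 genes, none of them a member. Leaving out a library was possible only without the block, so that a run weighs more in the mating type that lost no library. These fits called 0 to 9 genes and 0 members, and the median of the members ran from -1.158 (without a replicate 1) to 0.97 (without α replicate 1), against -0.132 with all libraries. In the same fits the a over α value changed sign for HIS4 (-2.531 to 1.695), LEU9 (-2.448 to 1.599), BAT2 (-0.064 to 0.338), LYS4 (-1.755 to 0.961), ARO1 (-0.621 to 1.139), HOM2 (-1.969 to 2.538), HOM3 (-1.109 to 1.503), THR1 (-1.744 to 0.42) and GCN4 (-1.157 to 1.154), and for GCN4 also under total counts only (0.017).

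Between runs, members called numbered 33 (without α replicate 1) to 43 (DESeq2), against 38. All 38 were called under every alternative with all 4 libraries, and 33 to 36 of them when a library was left out, in fits that also dropped the mating-type term. Over all genes DESeq2 called 2706, and 623 (without α replicate 1) to 1340 (without a replicate 2) were called with a library left out, against 1156. Under total counts only 823 genes were higher and 782 lower. The median of the members was -1.578 under total counts only, -1.59 without the mating-type term and -1.735 to -1.528 with a library left out. HOM6 stood at 0 under DESeq2 and RLE normalization and at -0.009 under upper quartile normalization. With a library left out, BAT2 (-0.169 to 0.333), ARO9 (-1.788 to 0.001) and HOM6 (-0.311 to 0.316) changed sign. The cause of these changes was not tested. Depth was lowest for HIS6, with 234 reads in α spores of replicate 2.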
